A study of Rattus norvegicus with 13 samples.

Results

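White blood cells carry microRNAs (miRNAs), short RNAs that lower the output of matching messenger RNAs, in sets that differ by lineage, and 8 of these were followed here in rat fat. They were picked by name. The myeloid lineage and macrophages are represented by rno-miR-223 and rno-miR-511*, and white blood cells in general by rno-miR-142-3p and rno-miR-142-5p. Lymphocytes are represented by rno-miR-150 and rno-miR-342-3p, and activated cells by rno-miR-155 and rno-miR-146a. The prefix rno, for rat, is left out from here on. Of 677 rat miRNAs with array values, 7 were members. miR-155 was not among the 677, so it was not analysed here. All 7 measured members were detected on all 13 arrays, and they were among the 176 miRNAs that were tested.

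The samples were fat of adult female Sprague Dawley rats, one array per animal. The 6 HFD arrays came from daughters of fathers that ate high-fat pellets (43% as fat), and the 7 Control arrays from daughters of fathers that ate standard chow (9% as fat). In both groups mating with females on chow took place when the males were 15 weeks old. The daughters were weaned onto chow at 3 weeks and had a first intraperitoneal glucose tolerance test at 6 weeks. Their fat was taken at 14 weeks. No daughter of either group was fed the high-fat diet, so the groups differ by the diet of the father. The labels name no fat depot, litter or father, so sisters could not be modelled and p-values measure only the spread between these animals. The question is whether the white blood cell miRNAs of a daughter's fat go with what her father ate. The submitters describe the HFD daughters as glucose intolerant, with a body weight like that of the Control daughters.

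Fat holds macrophages and lymphocytes beside its adipocytes, and in obese rodents the number of macrophages in fat is known to grow. miR-223 is abundant in neutrophils and monocytes, both strands of miR-142 are made in nearly all blood cell lineages, and miR-150 is characteristic of mature lymphocytes. miR-155 and miR-146a are switched on when macrophages and lymphocytes are activated, miR-146a through NF-κB, and miR-146a then dampens Toll-like receptor signalling. In whole fat, fewer cells of a type and less RNA per cell cannot be told apart.

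The mature sequences are given because they tell the members apart. Those for 6 of the 7 measured members were matched by name in RefSeq (rat build GRCr8), and miR-150 is given by name only. Each is written 5′ to 3′, with the seed, bases 2 to 8, in capitals.
miR-223, chrX:65151450-65151470, plus strand: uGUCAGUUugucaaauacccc
miR-511*, chr17:82188001-82188021, plus strand: aAUGUGUAgcaaaagacagga
miR-142-3p, chr10:73055155-73055177, plus strand: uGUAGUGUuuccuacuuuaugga
miR-142-5p, chr10:73055119-73055139, plus strand: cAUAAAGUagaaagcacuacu
miR-342-3p, chr6:133329715-133329737, plus strand: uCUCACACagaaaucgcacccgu
miR-146a, chr10:28350053-28350074, minus strand: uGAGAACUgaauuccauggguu
miR-146b, chr1:255144874-255144897, plus strand: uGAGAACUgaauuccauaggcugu
The 6 members had 6 different seeds. miR-146b, which is no member, is shown because it shares its seed with miR-146a. Counted from 1 at the 5′ end of miR-146a, the 22 compared bases differ by 2 substitutions, G18A and U21C. The GC content of the members ran from 33.3% in miR-142-5p to 52.2% in miR-342-3p.

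Both strands of miR-142 come from 1 hairpin of 87 bases (GRCr8 chr10:73055104-73055190, plus strand). It is shown with the 5p strand and then the 3p strand in capitals, because these strands give the closest relation among the members.
Mir142 hairpin: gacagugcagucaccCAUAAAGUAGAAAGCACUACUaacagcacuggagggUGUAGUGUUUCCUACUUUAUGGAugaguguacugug
In RefSeq GRCr8 the gene Mir511 overlaps the span of Mrc1, which encodes the macrophage mannose receptor. Mir142 overlaps the span of Tspoap1, and Mir342 overlaps those of Evl and of a long non-coding RNA gene. Mir223 and Mir146a each overlap the span of a long non-coding RNA gene. Strands were not compared. Mir150 overlaps no other gene of that table.

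An array detected 155 to 196 miRNAs. Spots well above background made up 19.98% to 25.1% of all, and 0 were saturated. The number of detected miRNAs, the share of bright spots and the scaling factor did not pass a two-sided exact permutation test between the groups (6 HFD and 7 Control arrays, adjusted p from 0.610 to 0.807). Each member was read by 2 probes of 10 spots, and levels are on a log2 scale on which 0 is the 75th percentile of the bright probes of the same array. The spots of a probe had a median SD of 0.049 to 0.18 (log2) by member, and the SD of a member's level over the 13 arrays was 0.13 to 0.34. miR-342-3p was the dimmest member, with probe means of 38.9 to 91.4 intensity units, and all its spots were well above background on 8 of the 13 arrays. Probes differ in brightness, so a level is compared only between arrays.

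A pair of Control arrays lay at the ends of the range for several members. Control 664 was the highest of the 13 arrays for miR-223, miR-142-3p, miR-142-5p and miR-342-3p. Control 658 was the lowest for miR-223, miR-511*, miR-150 and miR-146a. On Control 658 the summed linear level of 6 miRNAs of fat and its precursor cells was 17.4, against 5.07 to 6.57 on the other 12 arrays. That sum need not speak for all 6, whose log2 levels did not vary alike over the 7 Control arrays. The SD was 0.898 for miR-143, 0.956 for miR-145 and 0.999 for miR-196a. It was 0.225 for miR-193, 0.058 for miR-365 and 0.218 for miR-378. Of the 6, miR-143 had the highest mean log2 level in Control arrays (1.77). That concerns its weight in the sum and does not rank amounts, because probes differ in brightness. On Control 664 the summed level of 5 muscle miRNAs was 7.51. It was 13.3 on HFD 629 and 11.4 on Control 662, and 0.0919 to 0.849 on the other 10 arrays. Whether either list has a part in the members' levels was not tested, and results that rest on these arrays are given with and without them.

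**Figure D1:**
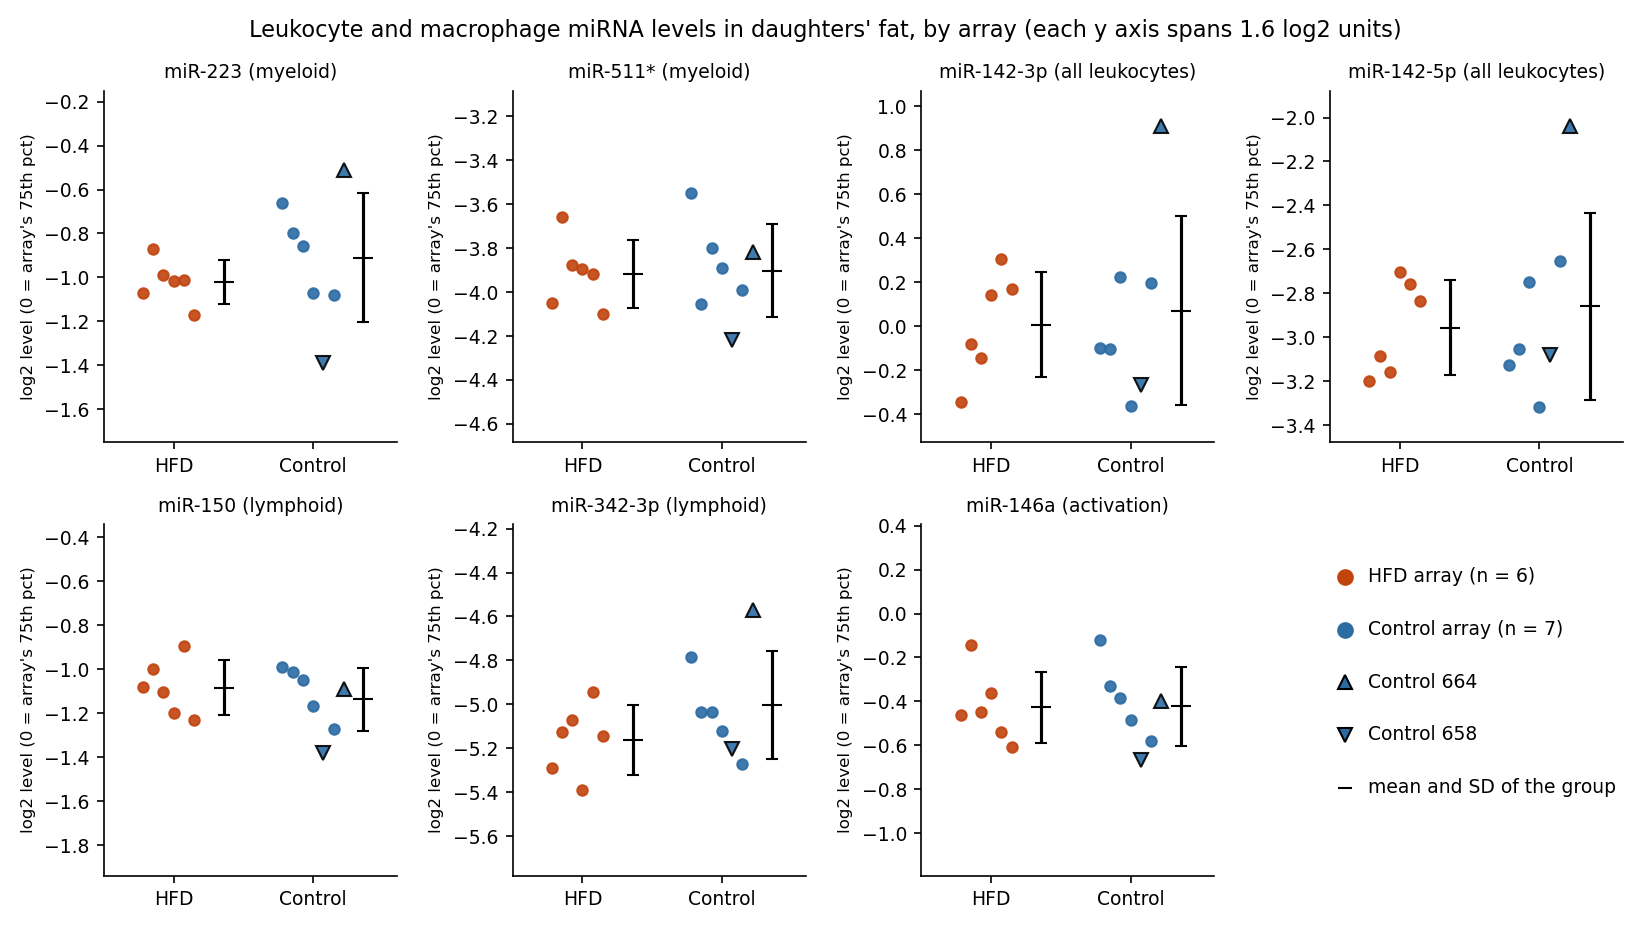
Log2 levels of the 7 measured members, each point 1 array (HFD n = 6, left; Control n = 7, right), with the group mean and SD as bars, the y axis relative to the array's 75th percentile. The HFD and Control points overlap in every panel, and Control 664 (triangle up) stands at 0.91 for miR-142-3p, above the next highest array at 0.30.

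The myeloid miR-223 lay within a narrow band in the HFD arrays. Its log2 level ran from -1.17 to -0.87 with a median of -1.01 in HFD arrays, against -1.39 to -0.51 with a median of -0.86 in Control arrays. All 6 HFD arrays lay inside the Control range, which ended with Control 658 below and Control 664 above. The mean was -1.02 ± 0.099 in HFD arrays (SD, n = 6) and -0.91 ± 0.29 in Control arrays (SD, n = 7). In limma, a linear model with a variance estimate shared over miRNAs, the HFD level was 0.926-fold the Control level (95% interval 0.773 to 1.11; log2 difference -0.11 ± 0.12 SE, adjusted p = 0.965). The difference was smaller than the spread between Control animals, and it was -0.045 without Control 664 and -0.19 without Control 658, not past the test in either case.

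miR-511* is the strand of miR-511 now named miR-511-3p, which in mouse macrophages is the active strand and is made together with Mrc1. It ran from -4.10 to -3.66 in HFD arrays (median -3.91) and from -4.22 to -3.55 in Control arrays (median -3.89). The HFD arrays again fell wholly inside the Control range. The fold of HFD over Control was 0.991 (95% interval 0.852 to 1.15; log2 difference -0.013 ± 0.10 SE, limma adjusted p = 0.996), and the log2 difference was -0.066 without Control 658. Its partner strand, named miR-511 on the array, was detected on 0 of 13 arrays.

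The miR-142 strands, shared by nearly all white blood cells, varied the most of the 7 members. miR-142-3p ran from -0.35 to 0.30 in HFD arrays (median 0.030) and from -0.36 to 0.91 in Control arrays (median -0.10), a 2.42-fold range over all arrays. miR-142-5p ran from -3.20 to -2.70 in HFD arrays (median -2.96) and from -3.32 to -2.04 in Control arrays (median -3.05). Both strands were lowest on Control 656 and highest on Control 664, and the groups overlapped for both. HFD over Control was 0.956-fold for miR-142-3p (95% interval 0.724 to 1.26; log2 difference -0.064 ± 0.19 SE, limma adjusted p = 0.983). It was 0.935-fold for miR-142-5p (95% interval 0.712 to 1.23; log2 difference -0.097 ± 0.18 SE, limma adjusted p = 0.983). Without Control 664 both differences changed sign, to 0.075 and 0.040, and without Control 658 they were -0.12 and -0.13. None of these passed the test.

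miR-150, the lymphocyte miRNA that restrains the transcription factor Myb, varied the least. It ran from -1.23 to -0.90 in HFD arrays (median -1.09) and from -1.38 to -0.99 in Control arrays (median -1.09). HFD 660 lay highest and Control 658 lowest, and the medians were equal at this precision. The mean was -1.08 ± 0.12 in HFD arrays (SD, n = 6) and -1.14 ± 0.14 in Control arrays (SD, n = 7), a fold of 1.04 (95% interval 0.928 to 1.16; log2 difference 0.053 ± 0.075 SE, limma adjusted p = 0.977). Without Control 658 the log2 difference was 0.012. Of the 176 tested miRNAs, ordered from the lowest residual SD, miR-150 was the 72nd and miR-142-3p the 152nd.

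miR-342-3p, found in lymphocytes among other white blood cells, had the lowest unadjusted p of the members, 0.182. It ran from -5.39 to -4.94 in HFD arrays (median -5.14) and from -5.27 to -4.57 in Control arrays (median -5.04). The lowest array was HFD 629 and the highest Control 664, and 4 of 6 HFD arrays lay inside the Control range. HFD over Control was 0.896-fold (95% interval 0.758 to 1.06; log2 difference -0.16 ± 0.11 SE, limma adjusted p = 0.965). The log2 difference was -0.086 without Control 664 and -0.19 without Control 658.

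miR-146a, the brake on inflammatory signalling, had almost equal means. It ran from -0.61 to -0.14 in HFD arrays (median -0.46) and from -0.67 to -0.12 in Control arrays (median -0.40). The highest array was Control 622 and the lowest Control 658, with HFD 620 just below Control 622. HFD over Control was 0.997-fold (95% interval 0.868 to 1.15; log2 difference -0.0043 ± 0.092 SE, limma adjusted p = 0.999). Without Control 658 the log2 difference was -0.045.

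None of the 7 measured members passed the test between HFD and Control at an adjusted p under 0.05 in limma, where 0% of the 176 tested miRNAs did. At an unadjusted p under 0.05 the members numbered 0 of 7, against 2 of 176 (1.14%). The log2 difference was above 0 for 1 member (miR-150) and below 0 for 6, with a median of -0.064, against 91 above and 85 below with a median of 0.0028 over all tested miRNAs. The members share animals and vary together, so these 7 directions are not 7 independent observations. The widest of the 7 intervals was that of miR-142-3p, 0.724 to 1.26-fold, and the narrowest that of miR-150, 0.928 to 1.16-fold.

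The arrays lay on 2 slides that each held both groups, and the members' differences did not keep their signs across them. On slide 1 (4 HFD and 4 Control arrays) the log2 difference was 0.20 for both miR-142 strands, while on slide 2 (2 HFD and 3 Control arrays, among them Control 664) it was -0.49 for miR-142-3p and -0.55 for miR-142-5p. For miR-146a it was -0.16 on slide 1 and 0.25 on slide 2, for miR-150 -0.052 and 0.21, for miR-511* -0.12 and 0.15, and for miR-223 -0.20 and 0.025. miR-342-3p was below 0 on both, at -0.14 on slide 1 and -0.20 on slide 2. The HFD arrays of slide 2 were HFD 619 and HFD 620, both from animals numbered under 640. Its Control arrays were Control 658, Control 662 and Control 664, all from animals numbered above 640. On slide 2, group and animal number thus cannot be told apart. In a test of the difference between slides, miR-146a had the lowest unadjusted p of the members, 0.0314, and 0 of 7 members passed the threshold in limma (adjusted p from 0.226 to 0.895), where 1 of 176 miRNAs did (0.568%).

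**Figure D2:**
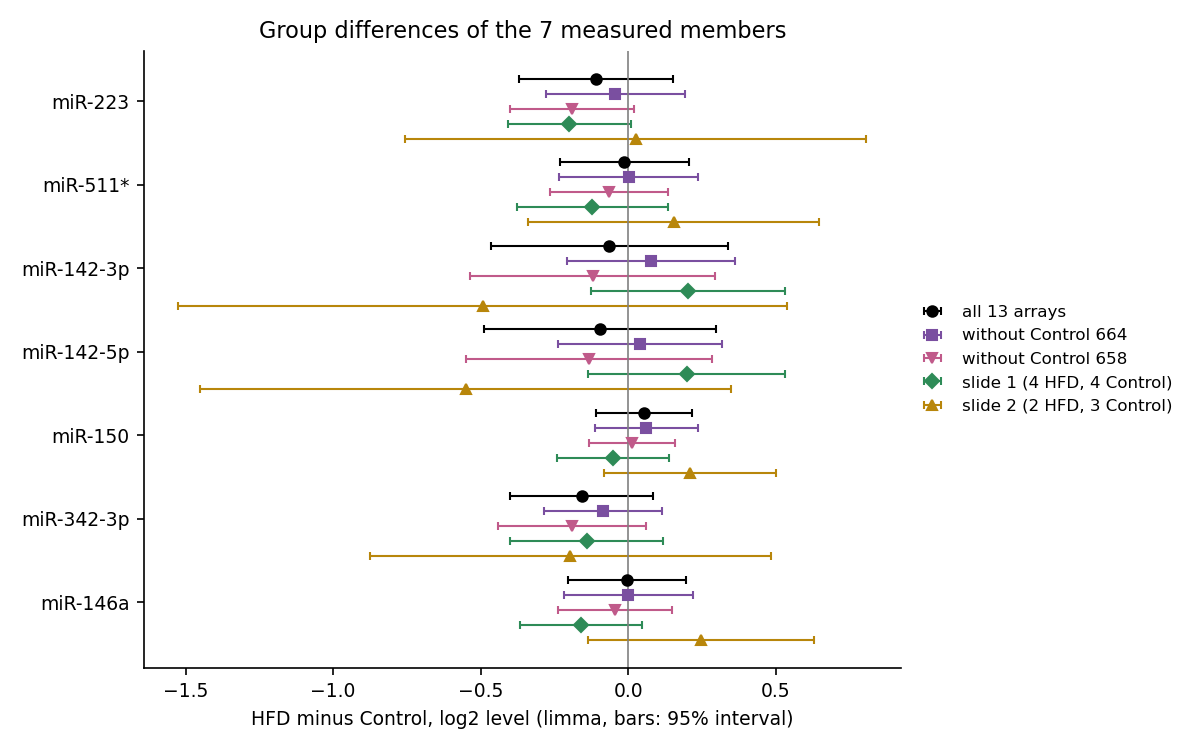
HFD minus Control log2 difference of each member (x axis, limma, bars 95% intervals) for all 13 arrays, without Control 664, without Control 658, and within each slide. All the intervals cross 0, and those of slide 2, with 2 HFD arrays, are the widest.

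The HFD arrays lay closer together than the Control arrays for each of the 7 members. The SD in HFD arrays was 0.099 against 0.29 in Control arrays for miR-223, 0.24 against 0.43 for miR-142-3p and 0.22 against 0.43 for miR-142-5p. The other 4 ratios of HFD SD over Control SD were 0.648 (miR-342-3p), 0.726 (miR-511*), 0.859 (miR-150) and 0.913 (miR-146a). Over all 176 tested miRNAs the HFD SD was the smaller for 100 (56.8%), with a median ratio of 0.922. Without Control 658 and Control 664, a choice made after seeing the data, it was the smaller for 6 of the 7, and for miR-150 it was 0.124 in HFD arrays against 0.119 in Control arrays. Whether the spread differed between the groups was not tested.

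The members did not move as 1 block from animal to animal. Over the 13 arrays, 18 of the 21 pairs of members had a Pearson r above 0, against 52.7% of all 15400 pairs of tested miRNAs. The median r was 0.49 for the member pairs, against 0.029 over all pairs, and r was over 0.8 for 2 of the 21 pairs, against 1.48% of all pairs. All members of an array share its hybridisation and its scaling factor. At an adjusted p under 0.05 (permutation test with 100000 resamples, two-sided, Benjamini-Hochberg over the 21 pairs), 5 pairs passed by r and 6 by Spearman's rho.

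The 2 strands of the miR-142 hairpin had the closest relation, with r = 0.97 and rho = 0.87. The permutation p of r was 1e-05, the smallest that 100000 resamples can give, and its adjusted p was 0.00021. The adjusted p of rho was 0.00525. Without Control 664 and HFD 660, the arrays farthest from the median of miR-142-3p, r was 0.94. It was 0.96 on slide 1 (n = 8) and 0.93 and 0.98 among animals numbered under 640 and above it (n = 7 and n = 6), called the lower and upper number ranges. The levels of miR-142-3p left a gap, with 7 arrays at -0.36 to -0.080, 5 arrays at 0.14 to 0.30 and Control 664 at 0.91. Within the lower 7 arrays, 3 HFD and 4 Control, r was 0.75 with an exact permutation p of 0.0619, which does not pass. No r is given for the other 5 arrays.

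A further set of relations joined miR-223, miR-146a, miR-511* and miR-342-3p. miR-146a and miR-511*, an activation miRNA and a macrophage miRNA, had r = 0.84 (adjusted permutation p = 0.00336, rho = 0.71) and 0.62 without Control 622 and HFD 620. miR-223 had r = 0.77 with miR-342-3p (adjusted permutation p = 0.0183, rho = 0.75), 0.73 with miR-146a (adjusted permutation p = 0.0247, rho = 0.82) and 0.72 with miR-511* (adjusted permutation p = 0.0247, rho = 0.70). Their adjusted permutation p by rho were 0.0314 for miR-146a with miR-511*, 0.0304 for miR-223 with miR-342-3p, 0.0105 for miR-223 with miR-146a and 0.0314 for miR-223 with miR-511*. Without Control 658 and Control 664, the arrays farthest in miR-223, those 3 values of r were 0.67, 0.86 and 0.71.

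Within slide 1 (n = 8) and within the lower (n = 7) and upper (n = 6) number ranges, all 4 relations kept a positive r. The r on slide 1 was 0.75 for miR-146a with miR-511*, 0.64 for miR-223 with miR-342-3p, 0.92 for miR-223 with miR-146a and 0.67 for miR-223 with miR-511*. The lower and upper ranges gave 0.81 and 0.94, 0.89 and 0.90, 0.77 and 0.93, and 0.62 and 0.86 for these pairs in the same order. Slide 2 held 5 arrays, and r is given only for 6 or more. The 3 calls of miR-223 rest on single arrays. Without Control 622 the adjusted permutation p was 0.0862 for each of the 3. Without Control 658 it was 0.121 with miR-146a and 0.153 with miR-511*, and without HFD 663 it was 0.0572 with both. Without Control 664 it was 0.0885 with miR-342-3p.

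The myeloid miR-223 and the lymphoid miR-150 were related in rank, while their linear relation missed the threshold. Their r was 0.65 (permutation p = 0.0154, adjusted p = 0.0539) and their rho 0.73 (adjusted permutation p = 0.0314). The r was 0.64 without Control 658 and Control 664, 0.61 on slide 1, and 0.76 and 0.56 in the lower and upper number ranges. Without Control 658, which was lowest for both miRNAs, r was 0.47 and did not pass. Without Control 664 r was 0.78 and passed (adjusted permutation p = 0.0114). No rho is given with single arrays left out, so how far the rank relation rests on Control 658 is not shown. Among the myeloid and lymphoid pairs, only miR-223 with miR-342-3p passed by r (r = 0.77, adjusted permutation p = 0.0183). As given above, that call rests on single arrays. The remaining pairs were miR-511* with miR-150 (r = 0.62, adjusted permutation p = 0.0686) and miR-511* with miR-342-3p (r = 0.48, adjusted permutation p = 0.169). Whether these 2 miR-511* pairs passed depends on the setting. miR-511* with miR-150 passed in 8 of 26 alternatives, with r up to 0.83 (adjusted permutation p = 0.00198, percentile over all probes), and miR-511* with miR-342-3p in 4 of 25, with r up to 0.71 (adjusted permutation p = 0.0139, the same scaling). The 2 lymphoid members, miR-150 and miR-342-3p, had r = 0.49 (adjusted permutation p = 0.168) and rho = 0.63 (adjusted permutation p = 0.0633).

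**Figure D3:**
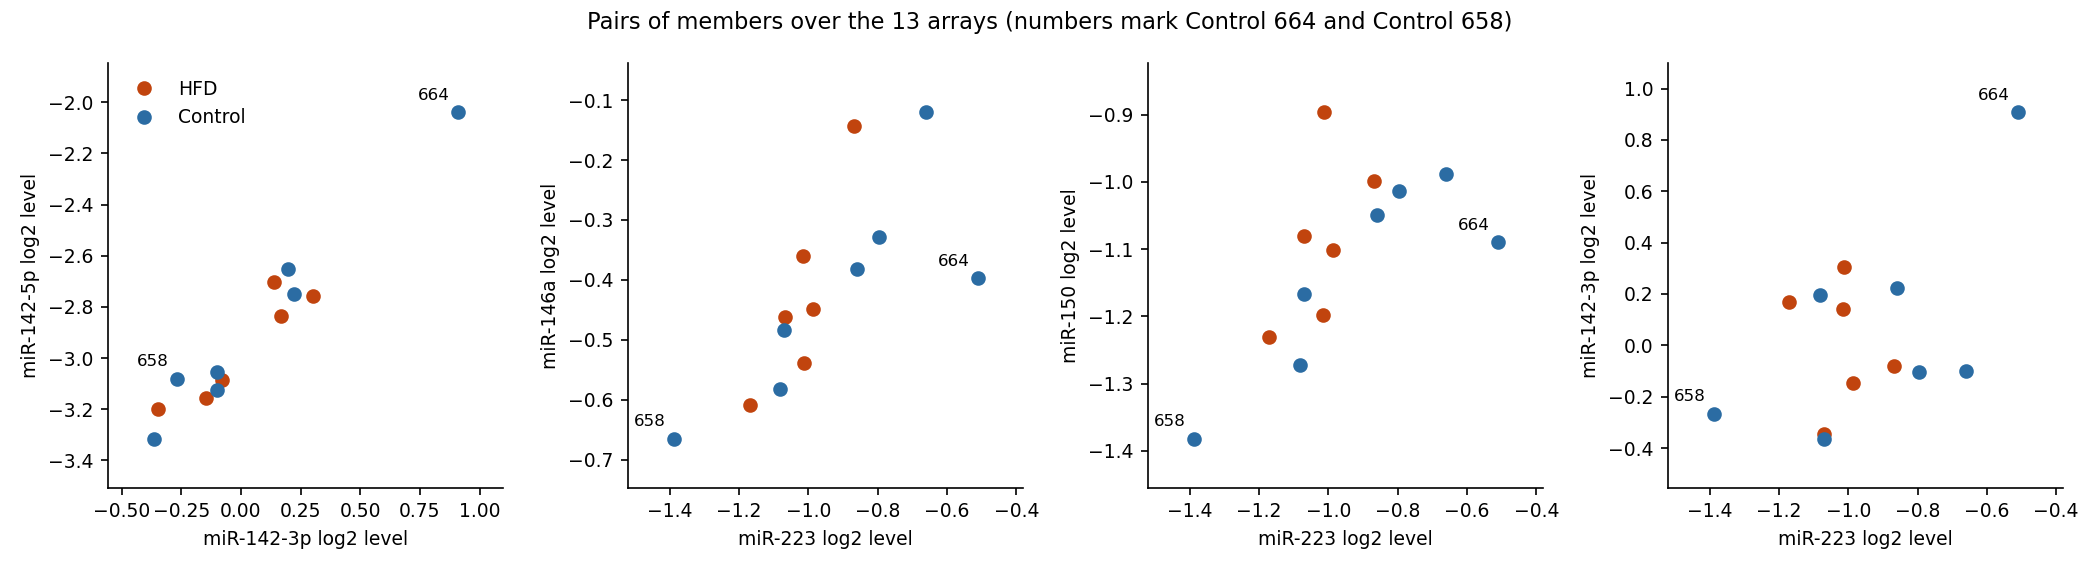
Log2 levels of 4 pairs of members over the 13 arrays, each point 1 array (HFD and Control by colour), with Control 664 and Control 658 marked. The miR-142 strands follow 1 line (r = 0.97), miR-146a and miR-150 climb with miR-223 (r = 0.73 and 0.65), and miR-142-3p with miR-223 has r = 0.53 through Control 664.

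miR-142, although shared by myeloid and lymphoid cells, had no relation with either that passed the threshold in the main setting. The r of miR-142-3p was 0.53 with miR-223 (adjusted permutation p = 0.139) and 0.57 with miR-342-3p (adjusted permutation p = 0.111), and without Control 664 these were 0.14 and 0.087. On slide 1 they were -0.16 and -0.086. In the lower number range they were 0.19 and -0.0096, and in the upper 0.85 and 0.80. The relation of miR-142-3p with miR-223 passed in other settings. In the deposited table, which holds no scaling between arrays, r was 0.78 with odd values replaced (adjusted permutation p = 0.00518). It was also 0.78 in that table as it stands (adjusted permutation p = 0.00777). With values centred within number ranges r was 0.72 (adjusted permutation p = 0.0340). With miR-150, miR-146a and miR-511*, the r of either miR-142 strand lay between -0.11 and 0.19 on all 13 arrays.

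**Figure D4:**
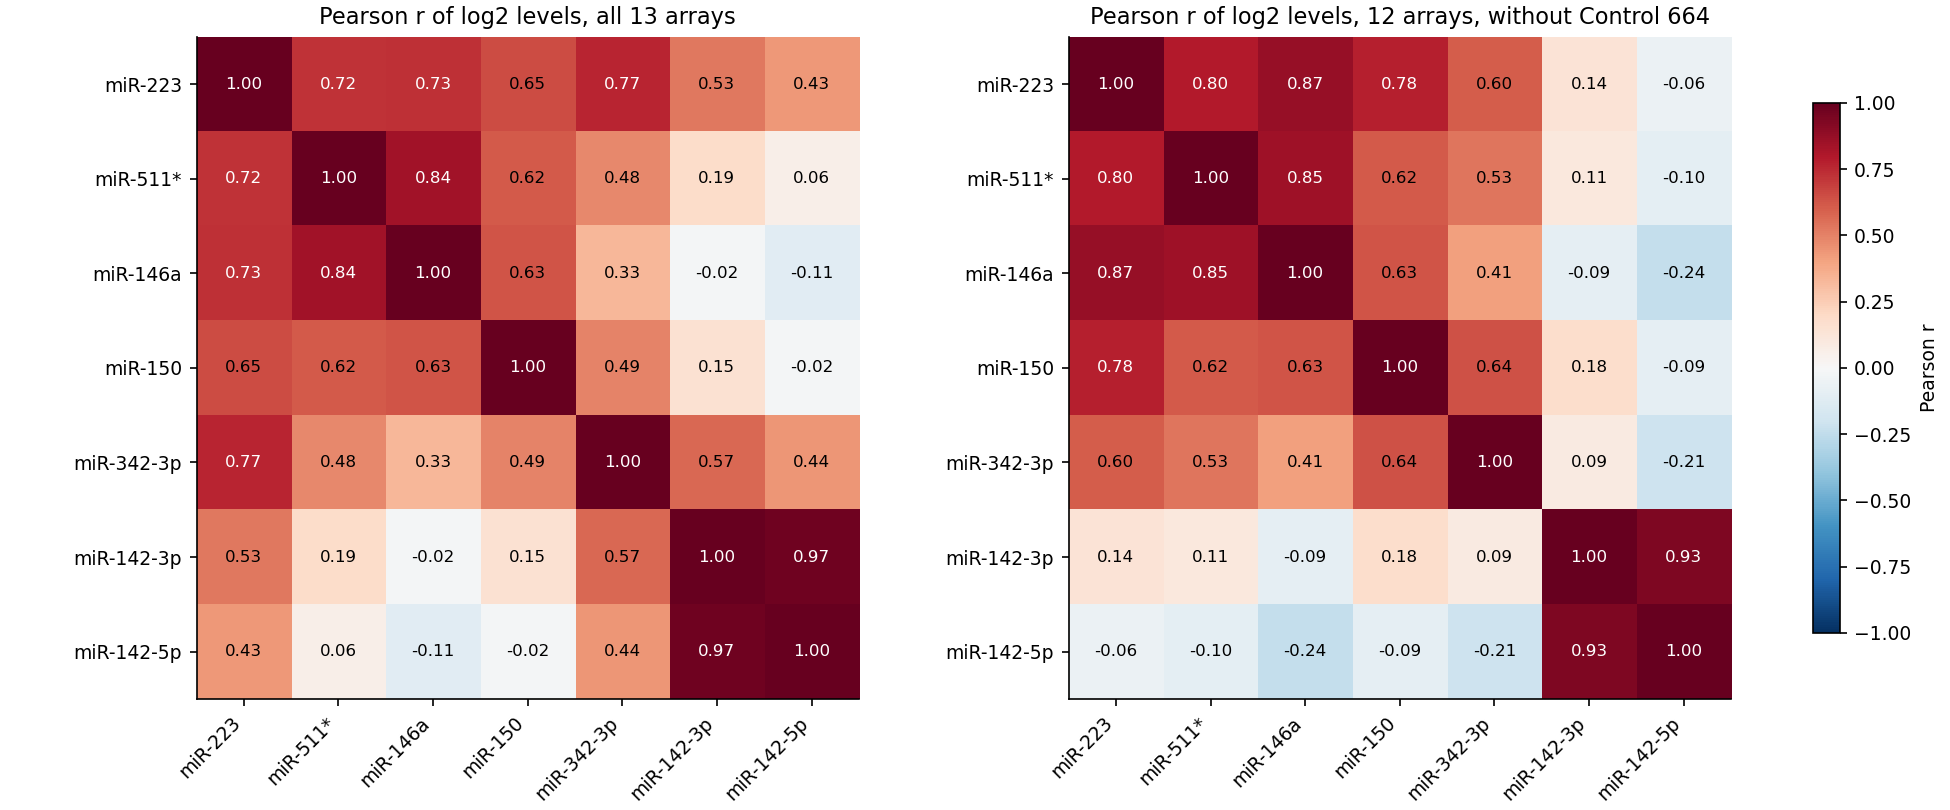
Pearson r between the log2 levels of the 7 members, over all 13 arrays (left) and without Control 664 (right), red above 0 and blue below 0. Without that array the r of miR-142-3p with miR-223 is 0.14 against 0.53 with it, while the r of its 2 strands is 0.93 against 0.97.

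The count of 5 pairs depends on how arrays are scaled. It was 11 with the 75th percentile taken over all probes, 10 with quantile normalization and 3 with the floor raised 4 times, and it was 2 to 8 when each array was left out in turn. In the deposited table, which holds no scaling between arrays, it was 17 once 26 odd values were replaced. miR-142-3p with miR-142-5p passed in all of these settings.

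The tested miRNAs whose levels lay nearest to those of miR-223, by r over the 13 arrays and as a description only, were miR-532-3p (0.86), miR-532-5p (0.81), miR-500 (0.78), miR-342-3p (0.77) and miR-146b (0.75). Those nearest to miR-150 were miR-151 (0.77), miR-34a (0.73), miR-195 (0.72), miR-497 (0.71) and miR-196a (0.70). miR-142-3p was nearest to its own opposite strand (0.97), then to miR-15b (0.83), miR-19a (0.77), miR-20a (0.77) and miR-20b-5p (0.77). Of these 3 sets, only those of miR-223 and miR-142-3p held another member. Without Control 664, the r of miR-142-3p with miR-15b was 0.61.

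Other miRNAs tied to inflammation did not pass the test either. Of 14 listed, 9 were tested, 2 with a difference above 0 and 7 below, with a median log2 difference of -0.053 and 0 called in limma (0 at an unadjusted p under 0.05). miR-146b, with the seed of miR-146a, had -2.79 ± 0.23 in HFD arrays (SD, n = 6) and -2.73 ± 0.56 in Control arrays (SD, n = 7), a difference of -0.060 ± 0.23 (SE). miR-21, which is raised in many inflamed and fibrotic tissues, had 1.67 ± 0.11 in HFD arrays (SD, n = 6) and 1.80 ± 0.30 in Control arrays (SD, n = 7), a difference of -0.12 ± 0.12 (SE). The 14 listed include the opposite strands of the members miR-511* and miR-342-3p. Those of miR-223, miR-146a and miR-150 were named after their values were seen. Except for that of miR-150, these opposite strands were detected on 0 of 13 arrays. The opposite strand of miR-150 was tested, with a difference of 0.018 ± 0.075 (SE).

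Lists of miRNAs of other cells are given beside these values, as levels and not as measures of blood or tissue content. The red cell miRNAs miR-144, miR-144* and miR-451 had log2 differences of 0.59 ± 0.41, 0.42 ± 0.25 and 0.55 ± 0.33 (SE), with limma adjusted p of 0.965 each. Their summed linear level ran from 3.15 to 6.91 in HFD arrays and from 1.70 to 5.51 in Control arrays. The endothelial miR-126 and miR-126* had differences of 0.082 ± 0.075 and 0.086 ± 0.068 (SE), and their sum ran from 3.01 to 3.74 in HFD arrays and from 2.91 to 3.77 in Control arrays. For fat and its precursors, 6 of 6 listed miRNAs were tested, 4 with a difference above 0 and 2 below, and 0 called. Whether red cell or vessel content has a part in the members' levels was not tested.

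The authors' deposited table of log2 values put values of 3 members a power of 10 away from those of the arrays' own files. It equals log2 of each array's own signal per miRNA except at 26 of 2569 values, and 4 of those that are off by a power of 10 belong to members. miR-142-5p stands at 14.50 on HFD 619 and 14.56 on HFD 620 in the deposited table, against 7.85 and 7.91 from the arrays' own files. miR-511* stands at 13.89 on HFD 663 against 7.23, and miR-146a at 14.18 on Control 664 against 10.85. A further odd value, that of miR-150 on HFD 620, is off by 0.0011. With the deposited table as it stands, the log2 difference of HFD minus Control was 2.15 for miR-142-5p, 1.12 for miR-511* and -0.46 for miR-146a. With the odd values replaced, an alternative chosen after seeing the data, they were -0.072, 0.012 and 0.019. None passed the test either way (limma adjusted p of 0.990 to 0.992).

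**Figure D5:**
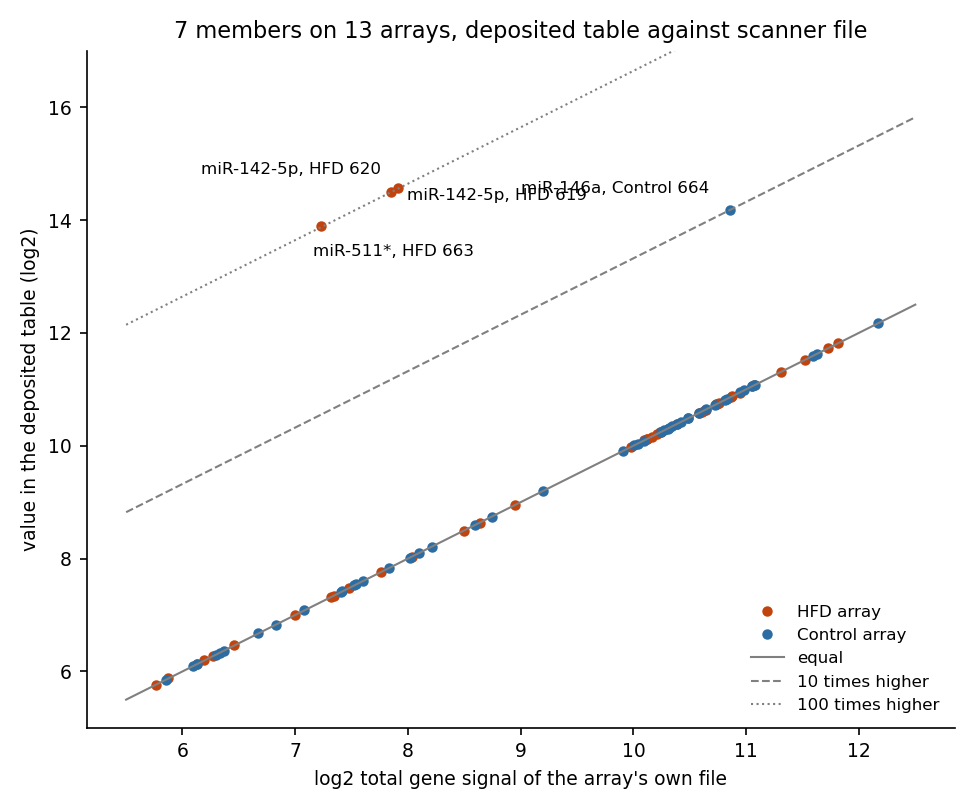
Value in the deposited table (y axis, log2) against log2 of the total gene signal in the array's own file (x axis) for the 7 members on 13 arrays, HFD and Control by colour, with lines of equality and of values 10 and 100 times higher. The points lie on the line of equality except for miR-142-5p on HFD 619 and HFD 620, miR-511* on HFD 663 and miR-146a on Control 664.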

How the data were processed

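MiRNA levels were measured on 13 Agilent 1-colour rat miRNA arrays, from 100 ng of Cy3-labelled total RNA each, per the labels' protocols. Per the file headers, the authors read the arrays with Feature Extraction 10.7.3.1, and the deposited spot values are linear intensity with the background subtracted. The deposited table holds log2 of the total gene signal, per the match to the arrays' own files (tolerance 2e-04), and its column medians run from 6.95 to 7.77. RMA and Partek are named, with no role given, per the submitters' processing notes.

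Control spots and outlier spots were left out. Remaining spots were averaged by probe and scaled by the 75th percentile of 260 probes seen on every array, with a floor of 0.0197 (-5.67 in log2). The level of a miRNA is the mean of its probes' log2 values. Detection on an array needed 1 probe with 0.5 or more of its spots well above background, and the 176 of 677 miRNAs with detection on 6 or more arrays were tested. The group test was limma 3.58.1 (R 4.3.3, two-sided) with Benjamini-Hochberg adjustment over 176 miRNAs and a threshold of 0.05. Relations used scipy 1.17.1. Lists are described by counts and medians. The fit and the correlation test were tested on simulated data. The number of arrays limits the precision.

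The members, lists and named miRNAs were chosen with earlier results of these data known. Named are the 8 members, the 5 miRNAs with the highest r to miR-223, miR-150 and miR-142-3p, and list members with such detection. Alternatives were other scalings, backgrounds, floors and filters, slide and number range (under 640 or above), arrayWeights, arrays left out and the deposited table. The normexp alternative used median spot signals in place of the planned mean signals.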

Additional observations from a re-analysis of the deposited data

Results flagged for a closer look

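Each of 50 sets held the 6 HFD or the 7 Control arrays. In each, the highest or lowest array was set against the others by Dixon's criterion, and chance flags about 1 in 20 such sets. For the members, 0 arrays stood out by it, Control 664 and Control 658 included. It named 3 values of the lists beside them. miR-29b, one of the inflammation miRNAs, had a log2 level of 1.22 on Control 658, against 0.54 to 0.83 on the other 6 Control arrays. It passed narrowly, with a gap over range of 0.579 against a limit of 0.568. On the same array the summed linear level of the miRNAs of fat and its precursors was 17.4, far above the other 6. As given above, that sum need not speak for each miRNA of the list. The summed linear level of the muscle miRNAs was 13.3 on HFD 629, far above the other 5 HFD arrays.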

How the results depend on the processing

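The count of miRNAs past the threshold was 0 in each direction in limma under all 29 alternatives, as was the count of members. No paired analysis was possible because the groups share no replicate numbers. Member differences near 0 changed sign in several settings and passed in none. Within slide 2, where HFD and Control also differ in number range, they were 0.025 (miR-223), 0.15 (miR-511*) and 0.25 (miR-146a). Within slide 1 they were 0.20 (miR-142-3p), 0.20 (miR-142-5p) and -0.052 (miR-150). The deposited table gave 1.12 (miR-511*) and 2.15 (miR-142-5p), and with its 26 odd values replaced, added after seeing the data, 0.012 (miR-511*) and 0.019 (miR-146a). Quantile normalization gave 0.042 and normexp 0.0047 for miR-146a, and arrayWeights 0.0012 for miR-142-3p. Without HFD 629, Control 662 and Control 664, the arrays rich in muscle miRNAs, miR-142-3p was at 0.10 and miR-142-5p at 0.058. Leaving out each array in turn gave -0.066 to 0.045 (miR-511*), -0.14 to 0.075 (miR-142-3p), -0.17 to 0.040 (miR-142-5p), -0.061 to 0.046 (miR-146a), -0.19 to -0.045 (miR-223), 0.012 to 0.083 (miR-150) and -0.20 to -0.086 (miR-342-3p). The r of miR-223 with miR-150 passed the threshold at 0.79 (percentile over all probes), 0.69 (median), 0.69 (quantile), 0.71 (total gene signal), 0.72 (deposited table, as it stands and with odd values replaced), 0.66 (slide as a block), 0.75 (deviations from group means) and 0.80 (without the muscle-rich arrays), and ran from 0.47 to 0.79 with 1 array left out. Pairs past the threshold numbered 11 (percentile over all probes), 8 (median), 10 (quantile), 10 (total gene signal), 3 (floor raised 4 times), 9 (deposited table), 17 (odd values replaced), 2 (slide 1) and 9 (deviations from group means), and 2 to 8 with 1 array left out (2 without Control 622, 3 without HFD 663, 3 without Control 658, 8 without HFD 660). With the deposited table r turned to -0.052 (miR-223 with miR-511*), -0.34 (miR-142-3p with miR-142-5p) and -0.078 (miR-146a with miR-511*). Among pairs below the threshold in the main setting, miR-150 with miR-511* passed in 8 of 26 alternatives, miR-342-3p with miR-511* in 4 of 25 and miR-223 with miR-142-3p in 3 of 26. On slide 1, r of miR-223 with miR-142-3p was -0.16. With the floor raised 4 times miR-342-3p lay at the floor on all arrays and gave no r. The causes were not tested, except where arrays or values were left out or replaced.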

Other observations

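In the deposited table, the 26 odd values are the 26 whose total gene signal, as printed in the array's own file, contains the characters 0.1. Each of the 26 equals, within 2e-04, log2 of that number with 0.1 rewritten as 1. For miR-142-5p on HFD 619, the signal of 230.183 stands in the table as 14.50, the log2 of about 23183, and for miR-146a on Control 664 a signal of 1850.14 stands as 14.18. Of the 26, 24 are off by about a power of 10, and the other 2, among them miR-150 on HFD 620, by 0.0011 or less. The arrays' files give a signal of exactly 0.1 to all 6232 miRNA values that were not detected. How the table was made is not given in the sources used here.

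The miR-142 strands were set against the red cell miRNA miR-451, a relation added after seeing the data, because both come from blood lineages. Over the 13 arrays miR-451 had r = 0.60 with miR-142-5p (rho = 0.57, permutation p = 0.0244 and 0.0467) and r = 0.55 with miR-142-3p (rho = 0.51, permutation p = 0.0469 and 0.0760). Adjusted over 7 relations, these permutation p were 0.164 by r and 0.266 by rho, past no threshold. On slide 1 (n = 8) the r were 0.72 and 0.71. The 2 arrays farthest from the strand's own median were Control 662 and Control 664 for miR-142-5p. They were Control 664 and HFD 660 for miR-142-3p. Without those arrays the r were 0.64 and 0.48. In the lower number range (n = 7) they were 0.45 and 0.28, and in the upper (n = 6) 0.61 and 0.61. The other 5 members had r between -0.41 and -0.092 with miR-451.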
